A study of Drosophila melanogaster with 2 samples.

Results

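Binding of a Capicua-GFP fusion protein was examined at 10 genes of Drosophila melanogaster that mark neurons or build their synapses: elav, nSyb, Syt1, Csp, brp, Rim, cac, para, Sh and futsch. They were chosen by symbol, and all 10 were found among the 13945 protein-coding genes of the 6 major chromosome arms. The assay was chromatin immunoprecipitation with an antibody against GFP, followed by sequencing (ChIP-seq). The single group (1 group) comprised 2 biological replicates, labelled 1 and 3, of whole adult flies, males and females pooled and of unknown age, from a stable transgenic line that carries Capicua with GFP fused to its C-terminus. No second genotype or treatment was included, and the labels name neither the promoter of the transgene nor how the flies of each replicate were raised, so the spread between replicates may be partly technical. Because whole animals were used, a site bound in few cells and a site bound weakly in many cells cannot be told apart.

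Each of the authors' peaks has a summit, the base of highest signal, and a score, their measure of its strength, which has no stated unit. The list of peaks past the authors' threshold on reproducibility held 7152 summits, with scores of 115.8 to 3067, and is called the reproducible list here. All of its summits are also the strongest of a relaxed list of 30000, made from both replicates pooled, which reaches down to a score of 30.67 and holds background by design. Each replicate had a relaxed list of the same size. A summit was counted for a gene when it lay in the gene or within 1000 bp of any of its annotated transcript starts. Library depth is unknown, as the peak lists carry scores and no numbers of reads.

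Capicua is an HMG-box repressor that binds the octamers TGAATGAA and TGAATGGA, and its repression is lifted when receptor tyrosine kinase signalling activates ERK. Neurons differ from other cells in a shared set of genes. Some encode regulators such as the RNA-binding protein Elav, others the machinery that fuses synaptic vesicles, the scaffold of the active zone where release occurs, and the ion channels that carry the action potential and admit calcium.

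Of the 10 genes, 4 had a reproducible summit: elav had 3, Rim had 2, and Csp and para had 1 each. Among all protein-coding genes the share was 32.8%. The other 6, nSyb, Syt1, brp, cac, Sh and futsch, had none. Of the 10, 2 (elav and Csp) had one at a promoter, meaning 1000 bp or less from their own start, against 30.5% of all protein-coding genes. With 10 genes, this count is a description. The scores of the 7 summits ran from 118.7 to 279.9 with a median of 163.6, against a median of 179.6 over the whole list. Only 2 of the 7, both at elav, were among the stronger 50% of reproducible peaks.

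The sequences under the highest elav and Rim summits are shown because they carry the strongest signal at the regulator and at the active zone gene. Each window reaches 100 bp to either side of the summit and is read 5' to 3' along the strand of the gene, which is the minus strand of dm6 at both loci, from the RefSeq Release 6 assembly. None of the 4 windows overlaps an annotated untranslated region. Capitals mark matches, on either strand and wholly inside the window, to 9 motifs. These are the Capicua octamers TGAATGAA and TGAATGGA, the related TCAATGAA, the DNA replication-related element TATCGATA, and CACACACA and AACAGCTG. The shorter ones are the motif of GAGA factor, GAGAGAG. An E-box, the palindrome CACGTG, was included too. The last is the motif of the GATA family of transcription factors, GATAAG. Where none of these matched, the capital marks the summit base. A match is a run of letters and not a tested site.
elav, upstream, chrX:523420-523620: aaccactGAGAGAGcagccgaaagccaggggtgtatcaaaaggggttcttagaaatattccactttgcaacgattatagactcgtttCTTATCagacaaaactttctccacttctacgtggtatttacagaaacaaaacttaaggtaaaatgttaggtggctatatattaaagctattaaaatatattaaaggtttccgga
elav, intron, chrX:522544-522744: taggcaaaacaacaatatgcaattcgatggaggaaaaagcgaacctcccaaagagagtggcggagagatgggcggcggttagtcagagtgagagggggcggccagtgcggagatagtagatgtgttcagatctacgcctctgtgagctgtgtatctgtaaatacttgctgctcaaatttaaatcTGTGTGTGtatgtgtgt
Rim, intron, chr3R:17901176-17901376: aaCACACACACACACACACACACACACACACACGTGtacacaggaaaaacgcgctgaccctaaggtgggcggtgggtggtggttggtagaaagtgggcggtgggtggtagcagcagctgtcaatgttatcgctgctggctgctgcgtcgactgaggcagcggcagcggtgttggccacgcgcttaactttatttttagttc
Rim, intron, chr3R:17902344-17902544: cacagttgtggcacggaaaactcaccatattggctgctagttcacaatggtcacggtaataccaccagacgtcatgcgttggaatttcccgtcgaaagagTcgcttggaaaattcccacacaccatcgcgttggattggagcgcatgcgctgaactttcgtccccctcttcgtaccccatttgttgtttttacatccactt

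The window upstream of elav held a GAGA element 90 bp before the summit and, 10 bp before it, a GATA site on the opposite strand, seen as CTTATC. Of all 7152 reproducible summits, 9.27% held a GAGAGAG and 24.6% a GATAAG. The intronic elav window held a CACACACA on the opposite strand, 88 bp after the summit. The stronger Rim window began with a run of CA repeats that gave 12 overlapping matches to CACACACA and ended in an overlapping CACGTG, whose centre lay 67 bp before the summit. Over the whole list, 10.6% of summits held a CACACACA and 4.10% a CACGTG. The motifs TCAATGAA, TATCGATA and AACAGCTG were at none of the 7 summits. Their shares over the whole list were 1.78%, 2.71% and 4.80%, in this order. The weakest elav summit, in its 3' untranslated region, had a GATAAG 9 bp after it. The weaker Rim window had no match to any of the 9 motifs, and neither did that of Csp.

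No elav, Rim or Csp summit had a Capicua octamer within 100 bp. Of the 7 summits, that of para alone had one, a TGAATGGA, while 1.45% of all reproducible summits had this octamer and 3.87% had TGAATGAA. The octamer lay 51 bp from the summit, at chrX:16455871-16455878 on the plus strand, opposite to para. It is shown in capitals with its flanks from 16455860 to 16455889, as the one place where the recognition sequence of Capicua and a reproducible summit coincide at these genes.
para, 3' untranslated region, plus strand: tctgggcaaacTGAATGGAttatctgtggt

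The neuronal regulator elav had the strongest binding of the set. Its gene, FBgn0260400, spans X 509235 to 523226 on the minus strand and has 2 annotated starts. The highest summit lay 294 bp upstream of the more distal start, in a peak from 523280 to 523639. Its score was 279.9, which ranked 1568 of 7152, and it scored 110.1 in replicate 1 and 178.2 in replicate 3 (144.2 ± 48.2, SD, n = 2). A second summit lay 582 bp downstream of the same start, in an intron, in a peak from 522478 to 522797. It had a score of 265.8 and rank 1744, with 112.9 in replicate 1 and 152.1 in replicate 3 (132.5 ± 27.7, SD, n = 2). Thus a pair of summits of like score flanked the distal elav start, and both were higher in replicate 3.

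The third elav summit was close to the weakest score of the reproducible list and lay at the other end of the gene. It had a score of 118.7 and rank 6901, with 54.4 in replicate 1 and 70.2 in replicate 3 (62.3 ± 11.2, SD, n = 2), and ranked 8173 in replicate 1. It fell in the 3' untranslated region of elav, 49 bp before the end of the gene, but only 151 bp from the start of arg, which encodes arginase and lies on the opposite strand. The arg gene spans X 509435 to 528028, so that it overlaps elav almost entirely, and both summits at the distal elav start also lie in an arg intron. The intronic one lies in the non-coding RNA gene lncRNA:enrr as well, whose start is shared with elav. The peak lists cannot assign a summit to either of the overlapping genes. At the proximal elav start no summit was reproducible, and the nearest relaxed one, 135 bp away, had a score of 83.4, with 46.7 in replicate 1 and 37.0 in replicate 3.

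**Figure D1:**
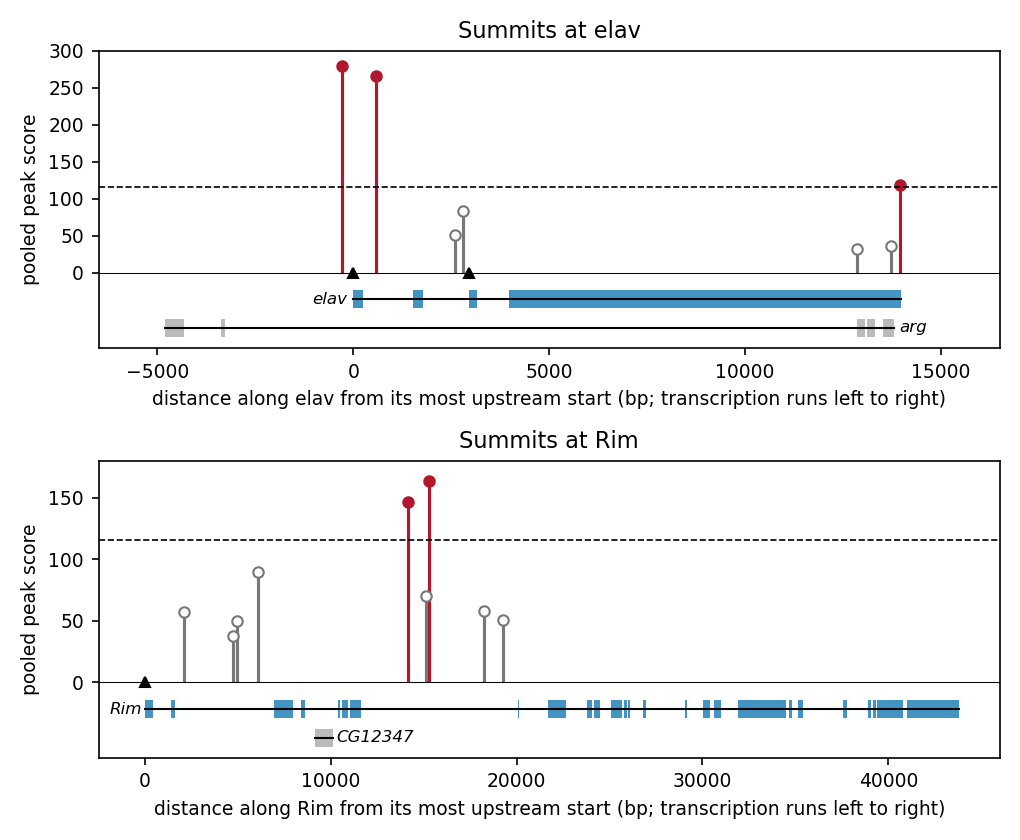
Score of each pooled summit (vertical axis, authors' units) against distance in bp along elav (top) and Rim (bottom) from the most upstream start. Filled red points are reproducible summits, open points are relaxed ones, the dashed line is the lowest reproducible score (115.8), triangles are starts, boxes are exons. The elav summits of 279.9 and 265.8 flank its distal start, and the Rim summits of 146.3 and 163.6 lie 14134 and 15302 bp into the gene.

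Among the genes of vesicle fusion, Csp had a reproducible summit, whereas nSyb and Syt1 had none. Csp encodes cysteine string protein, a chaperone on synaptic vesicles, and spans 3L 22267382 to 22273745 (FBgn0004179). Its summit lay in the 5' untranslated region, 120 bp from the nearest of its 2 starts, in a peak from 22267448 to 22267927. The score was 152.1, rank 4700, with 90.6 in replicate 1 and 59.2 in replicate 3 (74.9 ± 22.2, SD, n = 2). It was the only one of the 7 that was higher in replicate 1. Its peak ranked 7658 in replicate 3, so Csp had no summit among the 7152 highest peaks of that replicate alone. A relaxed summit of 81.7 upstream of Csp lay 51 bp from the start of the neighbouring gene CG11523.

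The fusion protein neuronal Synaptobrevin, a SNARE of the vesicle membrane, is encoded by nSyb (FBgn0013342, 3L 1630348 to 1637752). Its gene held a single relaxed summit, 572 bp from a start, with a score of 70.2, and with 42.3 in replicate 1 and 29.6 in replicate 3. Synaptotagmin 1, the calcium sensor of fast release, is encoded by Syt1 (FBgn0004242, 2L 2772327 to 2799979). Its higher relaxed summit, 905 bp from a start, had a score of 75.5, with 24.5 in replicate 1 and 54.5 in replicate 3. The other had a score of 46.9 and was matched in replicate 3 alone, at 41.3. The relaxed signal at both genes thus lay near their starts and below the lowest reproducible score.

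At the active zone, Rim was bound in an intron and brp narrowly missed the reproducible list. Rim encodes a scaffold that ties vesicles to calcium channels and spans 3R 17872748 to 17916578 (FBgn0053547) on the minus strand, with 1 annotated start. Its higher summit lay 15302 bp downstream of this start, in a peak from 17901036 to 17901515. The score was 163.6, with 70.5 in replicate 1 and 92.7 in replicate 3 (81.6 ± 15.7, SD, n = 2). The other, 14134 bp from the start in a peak from 17902204 to 17902683, had a score of 146.3. It scored 48.2 in replicate 1 and 95.7 in replicate 3 (72.0 ± 33.6, SD, n = 2), the widest ratio between replicates of the 7, at 1.99. Its peak ranked 9558 in replicate 1, so that 1 Rim summit was left among the 7152 highest peaks of that replicate alone. Rim was the only one of the 10 genes without a relaxed summit within 1000 bp of its own start, and the protein-coding start nearest to both reproducible summits was that of CG12347, a gene inside Rim, at 5169 and 4001 bp.

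Bruchpilot, the main scaffold protein of the active zone, is encoded by brp (FBgn0259246, 2R 9503765 to 9541565). It held 11 relaxed summits and no reproducible one. The highest, in an intron 683 bp upstream of an internal start, had a score of 112.7, with 59.8 in replicate 1 and 64.1 in replicate 3. Among the 10 genes this was the value nearest to the threshold from below, as the elav summit of 118.7 was from above. By replicate 3 alone the brp summit was among the 7152 highest peaks. Relaxed summits of 58.6 and 55.5 lay 9 and 73 bp from 2 of the 3 brp starts. That of 55.5 was matched in replicate 3 alone, at 38.1, and both were below the lowest reproducible score.

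Of the channel genes, para alone had a reproducible summit, and that summit was far from its starts. The voltage-gated sodium channel of the fly is encoded by para (FBgn0285944, X 16455027 to 16533096, minus strand). Its summit lay in the 3' untranslated region, 71489 bp from the nearest para start and 898 bp before the end of the gene, in a peak from 16455685 to 16456164. The score was 168.4, rank 3985, and the replicates were closest here, with 83.8 in replicate 1 and 85.6 in replicate 3 (84.7 ± 1.25, SD, n = 2). The nearest protein-coding start belonged to the translation factor gene eIF4H1, 6773 bp away. At the starts of para itself no summit was above 46.8, and the next highest summit of the gene, 1460 bp from a start, had a score of 58.1.

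The calcium channel that triggers release is encoded by cac (FBgn0263111, X 11931280 to 11985087), and its highest score was the lowest of the set. Its relaxed summits had scores of 49.7 and 31.1, 52 and 366 bp from internal starts. The higher scored 33.4 in replicate 1 and 27.0 in replicate 3. The Shaker potassium channel gene, Sh, is the longest of the 10 (FBgn0003380, X 17924307 to 18063247) and has 8 annotated starts. It held 18 relaxed summits and no reproducible one. The highest, 1242 bp upstream of an internal start, had a score of 96.4, with 54.1 in replicate 1 and 38.2 in replicate 3. The next, 84 bp from another start, had 78.2, with 28.5 in replicate 1 and 51.0 in replicate 3. Sh therefore had more relaxed summits than any other of the 10 genes, and none was above 96.4.

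The cytoskeletal gene futsch (FBgn0259108, X 1409069 to 1453686) encodes a microtubule-associated protein of axons and synapses that is related to mammalian MAP1B. It had 5 relaxed summits and no reproducible one. The highest lay 5 bp from an internal start and had a score of 85.8, with 37.5 in replicate 1 and 49.2 in replicate 3. A summit of 65.2 lay 9 bp from the first start. All 5 lay at the upstream end of the gene.

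**Figure D2:**
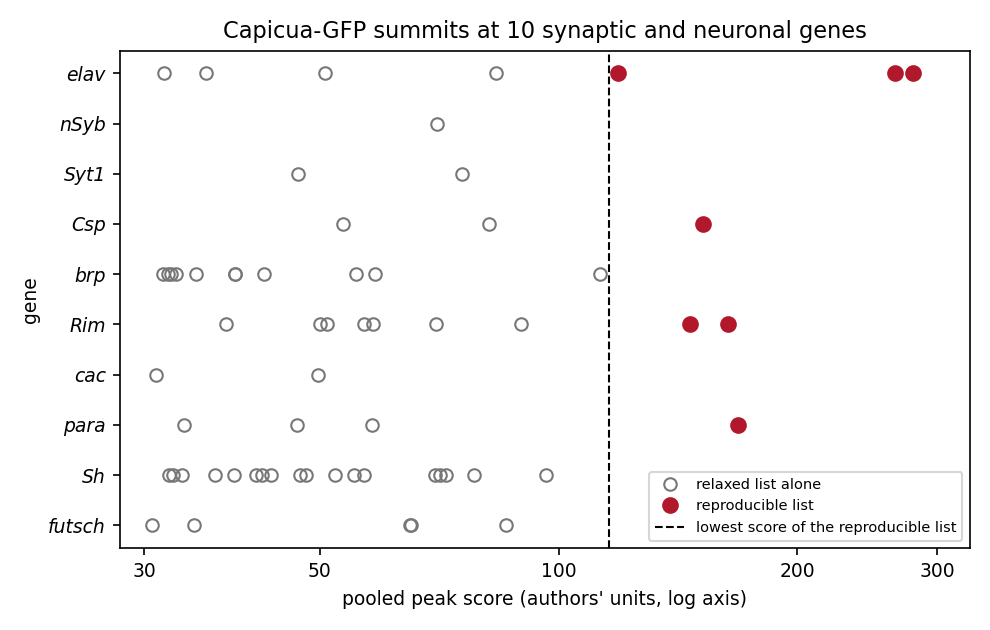
Pooled peak score (horizontal log axis, authors' units) of every summit at each of the 10 genes (rows). Filled red points are reproducible summits, open points are in the relaxed list alone, the dashed line is the lowest reproducible score (115.8). elav reaches 279.9, and brp stops at 112.7.

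All 10 genes had at least 1 relaxed summit, against 69.3% of all protein-coding genes, and 62 such summits lay at them in all. Of these, 55 were below the reproducible list. By overlap of intervals, 43 of the 62 were matched in both replicates, 16 in 1 replicate and 3 in neither. Summits of a shared interval can be matched to the same replicate peak. Of the 62, 24 (38.7%) lay within 1000 bp of a start of the same gene, and 9 of the 10 genes had such a summit. The shares to set beside these matches and start counts, over all relaxed summits or all genes, were not computed. The median score of the 62 was 51.6, and that of the whole relaxed list was 60.5.

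The named genes are long, so the counts are set beside genes of like length. A summit was found at 32.8% of all protein-coding genes and at 50.4% of those of 5 kb or longer. Above 5 kb the share was similar in each class of length given below. An effect of length on these shares was not tested. The median length of the named genes was 40.8 kb, with a median of 3 annotated starts, against 2.17 kb and 1 over all protein-coding genes. Of the 3 genes of 5 to 20 kb (elav, nSyb and Csp), 2 had a summit, against 50.2% of all genes in this class. Of the 4 genes of 20 to 50 kb (Syt1, brp, Rim and futsch), 1 had a summit, against 51.4%. Of the 3 genes of 50 kb or longer (para, cac and Sh), 1 had a summit, against 49.5%. With these few genes in a class, the shares are a description. Of the 5 genes on the X chromosome (elav, para, cac, Sh and futsch), 2 had a summit, against 26.5% of X-linked genes.

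Per length, summits were sparse in the longer of the 10 genes. Over all 10, 7 summits lay in 462.5 kb of gene region, or 0.151 per 10 kb, against 0.793 per 10 kb over all protein-coding genes, where a summit shared by overlapping genes counts for each. The classes of length differed in this. In genes of 20 to 50 kb the density was 0.127 per 10 kb in the 4 named genes and 0.565 in all genes of that class. In genes of 50 kb or longer it was 0.0365 in the 3 named genes and 0.271 in all. In genes of 5 to 20 kb it was 1.30 in the 3 named genes and 1.13 in all, and 3 of the 4 summits behind the first value were at elav. Relaxed summits were also sparser, with 1.34 per 10 kb at the 10 genes and 3.11 over all protein-coding genes. No test was made of these differences, since the genes had been chosen with results of these data known.

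**Figure D3:**
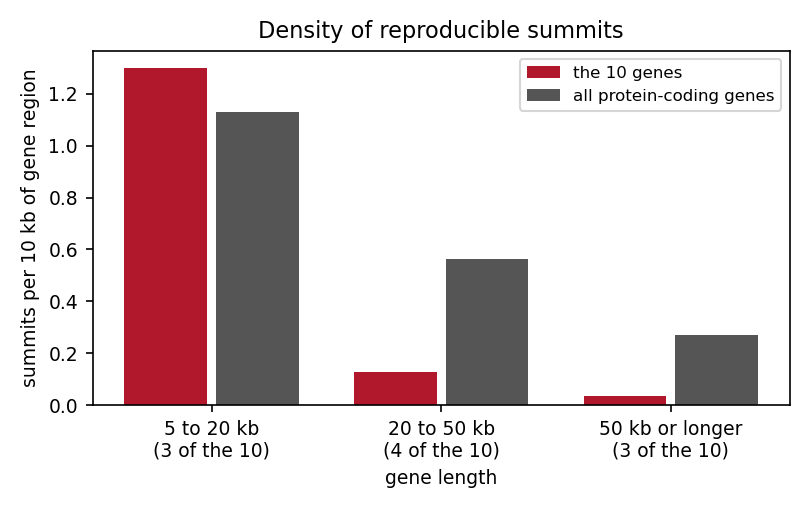
Reproducible summits per 10 kb of gene region (vertical axis) by gene length (horizontal axis), in the named genes (red) and in all protein-coding genes (grey). The red bar is lower in both longer classes (0.127 and 0.0365 against 0.565 and 0.271).

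Capicua octamers were present in 8 of the 10 genes, and 1 copy lay at a summit. The 10 gene regions hold 69 copies of TGAATGAA or TGAATGGA, with 17 in Sh, 16 in para, 10 in Rim, 9 in cac, 7 in brp, 5 in futsch, 4 in Syt1 and 1 in elav. nSyb and Csp, the shortest of the 10 genes at 7.4 and 6.4 kb, hold none. The share of all protein-coding genes that hold a copy was not computed. Of the 69 copies, the one at para lay wholly within 100 bp of a reproducible summit (1.45%), against 3.01% of the 12775 copies in all protein-coding gene regions. No further copy lay at a relaxed summit, so the share was again 1.45%, against 8.54% over all protein-coding gene regions. Windows of 100 bp on either side of summits covered less of the 10 gene regions than of all: 0.293% against 1.41% for reproducible summits, and 2.68% against 5.74% for relaxed ones. Counted by summit, 1 of 7 reproducible summits at the 10 genes had an octamer, against 5.23% of all 7152, and 1 of 62 relaxed summits at the 10 genes (1.61%), against 3.70% of all 30000. A single copy decides each of these shares.

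The replicates were compared at the 7 reproducible summits. All 7 had an overlapping peak in each replicate's own list, as did 7122 of the 7152 summits overall. The list was chosen for reproducibility, so such a match was largely fixed in advance and says little about these genes. Replicate 3 was the higher in 6 of the 7, with a median ratio of replicate 3 over replicate 1 of 1.31, whereas over the whole list it was higher at 57.5% of matched summits, with a median ratio of 1.06. The ratios at the 10 genes ran from 0.654 at Csp to 1.99 at Rim, and the middle 80% of all summits from 0.694 to 1.65. Scores are not stated to be scaled for depth, and n = 2 allows no test of single summits.

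**Figure D4:**
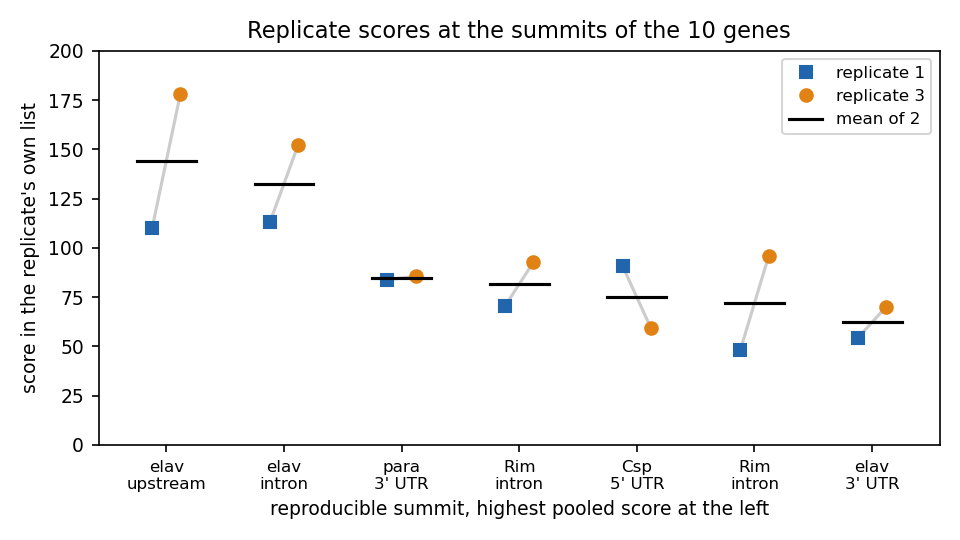
Score in each replicate's own list (vertical axis, authors' units) at the 7 reproducible summits (horizontal axis, by gene and place), with squares for replicate 1, circles for replicate 3 and bars for their mean. Only the Csp summit is higher in replicate 1 (90.6 against 59.2).

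A wider list of 121 genes of neuronal and synaptic function, in 9 roles, was read the same way. It was drawn up by role, and some of its genes, such as Syb, are not confined to neurons. Of these, 31 had a reproducible summit (25.6%), below the 32.8% of all protein-coding genes. Among the 100 of them that are 5 kb or longer, 28 had one, against 50.4% of all genes of that length. Highest scores above the 279.9 of elav were found at 9 of the 121. Some of the summits counted here are closer to a start of a neighbouring gene, and genes with many starts have more places to be counted.

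The roles are given by their counts, with no test between them; their median gene lengths ran from 4.75 kb for vesicle fusion to 64.0 kb for synaptic adhesion, and the shares over all protein-coding genes to set beside them are 32.8% at any length and 50.4% at 5 kb or longer. Of 8 genes of the axon cytoskeleton and transport, 6 had a summit, with the highest scores at shot (597.6), a linker of actin and microtubules, at wnd (414.2), a kinase of axon injury, and at Ank2 (315.0), a giant ankyrin. Of these, shot alone held 17 of the 28 summits of the role. Of 11 genes of vesicle recycling, 6 had one, and sky, a regulator of vesicle traffic through endosomes, held 10 of their 16 summits, with a highest score of 463.4. EndoA (150.6) and Syn (147.8), which encode Endophilin A and Synapsin, followed. Of 13 genes of synaptic adhesion, 5 had a summit, with the highest at the cell surface genes Dscam1 (404.0), Fas2 (259.1) and Lar (246.8). At the active zone, 3 of 8 had one, Liprin-alpha (204.4), CASK (162.4) and stj (134.3), the last encoding a calcium channel subunit.

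The genes of transmitter synthesis and transport had a median length of 8.52 kb and the transmitter receptor genes one of 12.5 kb. Among all protein-coding genes, the share with a summit was 50.2% at 5 to 20 kb and 32.8% at any length. Both lists also hold genes shorter than 5 kb and longer than 20 kb, so neither share is matched to them by length. Of 14 genes of transmitter synthesis and transport none had a reproducible summit, and the highest relaxed score was 109.7, at Ace, which encodes acetylcholinesterase. Of 25 transmitter receptor genes 1 had, the NMDA receptor gene Nmdar1, with 3 summits and a highest score of 316.9. Of 7 genes of neuronal RNA-binding proteins and transcription factors 1 had, Rbp9 (167.4), a close relative of elav. The other relative, fne, had a highest relaxed score of 66.9.

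Of 20 voltage-gated channels and their subunits, 6 had a summit, with the highest at KCNQ (729.4), a potassium channel, at NaCP60E (364.3), a relative of para, and at Ih (158.0). The relatives of Sh had relaxed scores of at most 81.5 at Shal, 58.7 at Shab and 37.1 at Shaw. Of the relatives of cac, Ca-alpha1T had a summit of 152.2 and Ca-alpha1D a relaxed one of 53.5. Relatives of the 10 genes were picked by family, outside the rule for named genes. Of 15 genes of vesicle fusion, 3 had a summit: the SNARE gene Syx1A (493.6), cpx (152.2), which encodes Complexin, and Syb (142.9), the broadly expressed relative of nSyb.

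For comparison, 10 glial and 13 photoreceptor genes were read too. Of the glial genes 6 had a summit, with 2.11 summits per 10 kb. Their median length was 6.29 kb, and all protein-coding genes of 5 to 20 kb had 1.13 summits per 10 kb and a share of 50.2%. Some of the glial genes are shorter than 5 kb, so that class is not fully matched to them. The highest glial scores were at Gs2 (1054) and Eaat1 (955.2), which handle glutamate, at loco (811.2) and at moody (440.1). The photoreceptor genes had a median length of 3.04 kb, and the share with a summit among all genes shorter than 5 kb was not computed. Of the photoreceptor genes, 3 had a summit (23.1%), against 32.8% of all protein-coding genes of any length. These were Rh5 (646.9), norpA (443.4) and Rh4 (163.0), and of them Rh5 alone had a summit within 1000 bp of its start. Neither difference from the 10 genes was tested.

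**Figure D5:**
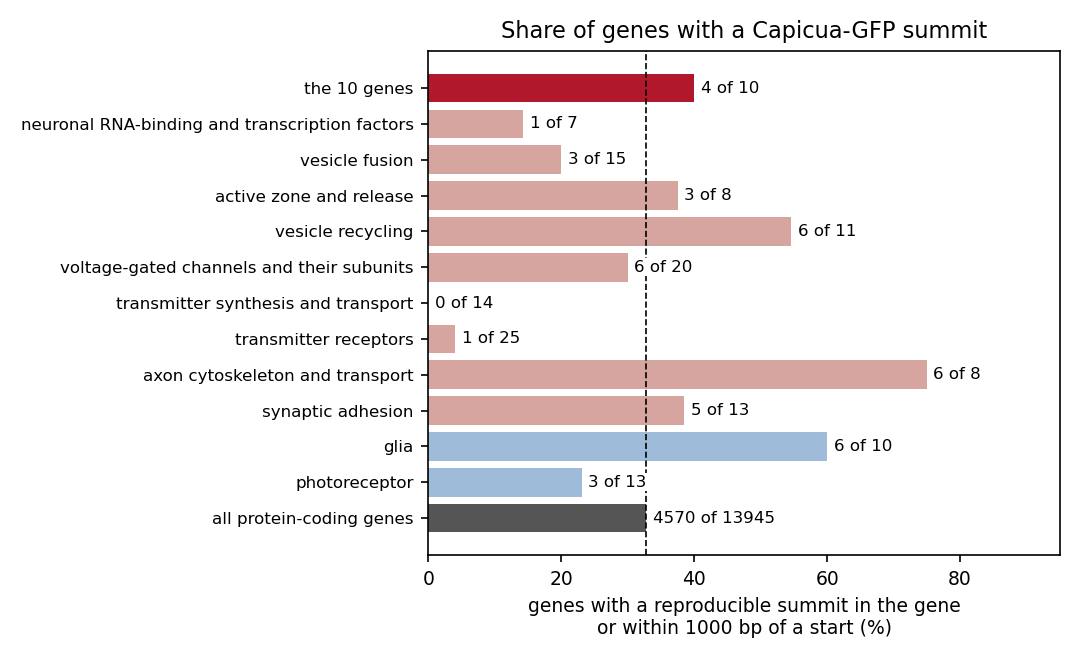
Share of genes with a reproducible summit (horizontal axis, percent, with counts beside the bars) for the 10 named genes, the 9 roles of the wider neuronal list, glial and photoreceptor genes and all protein-coding genes. The dashed line is the 32.8% of all protein-coding genes; transmitter synthesis and transport stands at 0 of 14.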

How the data were processed

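ChIP-seq peak lists of 2 replicates of 1 group were used. Per the text list deposited beside the peaks, the authors made relaxed lists per replicate and for the pool, each against a control alignment, and a reproducible list by irreproducible discovery rate (IDR). Which aligner and caller they ran is not given in the sources used here. Peak score, a peak signal of the authors with no stated scaling, was used as deposited. The deposited −log10 q-value has a ceiling of 4.51 that all reproducible peaks share, and it ranked nothing.

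Summit positions (interval start plus offset) are dm6, 1-based; 3 reproducible summits lie outside their interval and were kept. The dm3 lists were not used. Genes are from Ensembl release 115 and sequence from RefSeq Release 6, which is dm6. A replicate score is that of its strongest peak overlapping by 1 bp or more. The region of a gene is its body plus 1000 bp around each start. Counts were set beside all protein-coding genes, with no test, since 1 group gives no contrast.

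The members and lists were chosen with earlier results of these data known. Of each list the up to 3 genes with the highest summit are named, and any above every one of the 10. All symbols matched, 1 by synonym (Syd-1, now RhoGAP100F). The counting was tested on simulated data. Alternatives are given in the closing section. Python 3.11.15, numpy 2.4.6, pandas 2.3.3 and matplotlib 3.10.9 were used.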

Additional observations from a re-analysis of the deposited data

How the results depend on the processing

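The depth of the libraries is unknown, so a missing summit may be one below detection. With 5000 bp around starts, 49 of the 121 genes of the wider list had a summit, in place of 31, and the share of all protein-coding genes was 51.2%, in place of 32.8%. Among the stronger 50% of reproducible peaks, 1 of the 10 genes (elav) had a summit, with 2 summits, 1 gene had a promoter summit, and 15 of the 121 had a summit, against 18.6% of all protein-coding genes. With all relaxed pooled peaks these counts were 10 genes, 62 summits, 9 genes with a promoter summit and 107 of the 121, against 69.3% of all protein-coding genes. The shares given here are of genes with any summit, and none was computed for promoter summits at these settings. An octamer within 50 bp was at 0 of the 7 summits, in place of 1 within 100 bp, since that of para lies 51 bp away. From replicate 3 alone or replicate 1 alone, 4 of the 10 genes had a summit, but brp took the place of Csp without replicate 1. The share of all protein-coding genes was 32.3% from replicate 3 alone and 33.4% from replicate 1 alone. Leaving out each replicate in turn gave 5 to 7 summits at the 10 genes, 2 genes with a promoter summit, and 33 to 35 of the 121. Without replicate 3, the weakest elav and the weaker Rim summit were lost. With 500 bp around starts, with merged regions, with the gene body alone and with RefSeq gene models, the last chosen after seeing the data, 4 of the 10 genes had a summit. The shares of all protein-coding genes at these settings were, in the same order, 30.2%, 32.7%, 18.6% and 32.8%. Of 90 counts for single genes of the 10 under these settings, 74 stayed within 1.5 times and 16 moved. A count of 0 that stayed 0 was taken as unmoved, and most of the 74 are of this kind, so they say little about stability. No paired analysis was possible because there is 1 group.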
